A study of Mus musculus with 2 samples.

Results

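The Hox genes encode the homeodomain transcription factors that give cells along the body axis their position. In mouse they lie in 4 clusters, HoxA to HoxD, and genes at the same place in each cluster share a paralogue number from 1 to 13. Accessible sites of 38 Hox genes, taken by name from a fixed list, are described here, out of 21887 protein-coding genes on chromosomes 1 to 19, X and Y. HoxA and HoxB gave 10 genes each, and HoxC and HoxD gave 9 each. Within 50 kb of these clusters, replicate 1 held 141 of its 83732 peaks shared with the other library, and replicate 2 held 147 of 84032.

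The sites came from ATAC-seq, in which the Tn5 transposase cuts and tags open chromatin, on Stag3 KO cells that the labels call GSC. They carried Acrosin-EGFP and beta-Actin-EGFP, abbreviated AAG, and viable AAG-positive cells were sorted before transposition. Stag3 encodes a subunit of cohesin, the ring complex that folds chromosomes into loops. The labels gave no treatment, time or age, and did not say whether the cells were 1 clone or whether each library had a culture of its own, so their spread may be purely technical. All samples formed 1 group of 2 libraries. The wild-type cells that the series names for comparison were not analysed here, so no value below is an effect of the knockout.

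Hox genes of 1 cluster are transcribed in the same direction, and their order on the chromosome follows the order in which they are used from head to tail. Low paralogue numbers serve the hindbrain and neck, and high numbers serve the tail, limb ends and urogenital tract. In cells that do not use them, the clusters are classically covered by Polycomb repressive complexes, and Trithorax complexes oppose this repression. The clusters also hold microRNA genes of the miR-10 and miR-196 families, which target Hox messages, and long noncoding RNA genes such as Hotair.

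The libraries were of similar size. Replicate 1 held 107331 peaks and replicate 2 held 98986, and the tags stacked at a summit, recovered from the deposited values, had medians of 40 and 41. At the clusters, 141 of 172 replicate 1 peaks (82.0%, 95% Wilson interval 75.6 to 87.0) and 147 of 177 replicate 2 peaks (83.1%, interval 76.8 to 87.9) were shared. In the rest of the genome, 78.0% and 84.9% were shared. Stag3 itself had a shared region at a gene end with folds of 6.27 and 6.72 on 19 and 20 tags, but the labels do not say which part was removed, so this does not check the knockout. Of 8 spermatogonial marker genes, each of Gfra1, Ret, Id4, Etv5, Zbtb16, Nanos2, Ddx4 and Dazl had a shared gene-end region. The same held for 4 of 5 Sertoli, 1 of 3 Leydig and 1 of 4 fibroblast markers. It held for 65.8% of all protein-coding genes, and the marker lists are small. An accessible site is no measure of expression, so these counts do not give the makeup of the sorted cells.

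The sequences below show the DNA at some Hox start sites. Promoter windows of 300 bases, with 250 before the start and 50 after it, come from RefSeq on GRCm38.p6, and 22 of the 38 Hox genes matched, with 24 windows. The 4 windows below differ in CpG content, the feature in which Hox windows are compared with others further on, and are printed with each CpG dinucleotide in capitals. Hoxa13, which patterns limb ends and the genital tract, has its window at chr6:52260831-52261130 on the minus strand. It had the most CpG of all Hox windows and a shared region over it. Hoxd1, a gene of sensory neuron development, has its window at chr2:74762730-74763029 on the plus strand, and a shared region covered it. Hoxa6 has its window at chr6:52208623-52208922 on the minus strand, with many CpG and no shared region. Hoxa9, a gene of blood cell progenitors, has its window at chr6:52227321-52227620 on the minus strand, with few CpG and no shared region.
Hoxa13: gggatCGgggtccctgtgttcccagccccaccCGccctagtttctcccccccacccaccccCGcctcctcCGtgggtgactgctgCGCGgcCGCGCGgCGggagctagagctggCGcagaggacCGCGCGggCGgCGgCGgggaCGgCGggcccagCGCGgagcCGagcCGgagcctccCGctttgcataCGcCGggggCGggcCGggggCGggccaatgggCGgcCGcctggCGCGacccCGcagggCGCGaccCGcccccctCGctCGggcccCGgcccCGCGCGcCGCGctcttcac
Hoxd1: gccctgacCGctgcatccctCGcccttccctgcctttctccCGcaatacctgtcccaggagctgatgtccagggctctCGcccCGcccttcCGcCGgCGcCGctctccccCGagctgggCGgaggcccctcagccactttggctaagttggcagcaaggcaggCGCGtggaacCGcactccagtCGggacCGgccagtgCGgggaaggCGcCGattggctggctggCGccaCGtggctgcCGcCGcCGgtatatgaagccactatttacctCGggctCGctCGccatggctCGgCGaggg
Hoxa6: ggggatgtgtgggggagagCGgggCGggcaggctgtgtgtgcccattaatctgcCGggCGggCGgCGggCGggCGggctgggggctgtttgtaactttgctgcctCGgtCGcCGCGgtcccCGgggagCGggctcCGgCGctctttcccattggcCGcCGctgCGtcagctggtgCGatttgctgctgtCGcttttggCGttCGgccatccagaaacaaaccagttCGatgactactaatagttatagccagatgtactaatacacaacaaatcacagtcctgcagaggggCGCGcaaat
Hoxa9: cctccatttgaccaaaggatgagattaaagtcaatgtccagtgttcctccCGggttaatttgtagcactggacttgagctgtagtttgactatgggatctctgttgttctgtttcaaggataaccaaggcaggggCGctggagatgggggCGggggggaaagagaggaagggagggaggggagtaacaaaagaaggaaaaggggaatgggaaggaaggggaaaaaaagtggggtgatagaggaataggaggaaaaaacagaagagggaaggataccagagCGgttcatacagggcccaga

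The windows of Hoxd4 and Hoxb8 are the only Hox windows that hold the Cdx motif, which is bound by the caudal factors that act upstream of Hox genes. Hoxd4 lies at chr2:74721728-74722027 and Hoxb8 at chr11:96281655-96281954, both on the plus strand. Capitals mark every motif searched: the Cdx motif TTTATNG, the TATA box TATAAA, the E-box CACGTG and the joint Pbx and Hox motif TGATNNAT, on both strands. The Cdx and TATA motifs can overlap. Neither window had a shared region over it.
Hoxd4: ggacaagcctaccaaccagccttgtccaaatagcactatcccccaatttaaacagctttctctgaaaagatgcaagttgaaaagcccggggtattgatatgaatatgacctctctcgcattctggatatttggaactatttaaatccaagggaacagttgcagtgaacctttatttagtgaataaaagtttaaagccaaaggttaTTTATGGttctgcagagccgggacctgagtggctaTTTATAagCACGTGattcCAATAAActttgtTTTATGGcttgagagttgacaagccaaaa
Hoxb8: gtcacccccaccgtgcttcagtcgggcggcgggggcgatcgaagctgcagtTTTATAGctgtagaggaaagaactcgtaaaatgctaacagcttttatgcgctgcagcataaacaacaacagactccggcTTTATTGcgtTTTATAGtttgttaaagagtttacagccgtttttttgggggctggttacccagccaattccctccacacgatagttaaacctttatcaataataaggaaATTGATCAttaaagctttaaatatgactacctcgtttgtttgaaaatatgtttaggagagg

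The mature microRNAs of the clusters fall into families by their seed, bases 2 to 8, shown in capitals. miR-10a-5p and miR-10b-5p share the seed ACCCUGU, and miR-196a-5p and miR-196b-5p share the seed AGGUAGU. The sequences are from RefSeq on GRCm38.p6. Mir10a (mature at chr11:96317186-96317208) lies in HoxB and Mir10b (chr2:74726074-74726096) in HoxD, both on the plus strand. Mir196a-1 (chr11:96265187-96265208) and Mir196a-2 (chr15:102973365-102973386) lie on the plus strand of HoxB and HoxC and give the same mature RNA, and Mir196b (chr6:52230129-52230150) lies on the minus strand of HoxA.
miR-10a-5p: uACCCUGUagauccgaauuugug
miR-10b-5p: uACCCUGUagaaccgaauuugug
miR-196a-5p: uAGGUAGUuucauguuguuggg
miR-196b-5p: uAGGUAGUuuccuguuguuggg

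The 4 clusters carried accessible sites at nearly the same density. Between the outermost listed genes, HoxA (chr6:52162417-52260880) had 21 shared sites in replicate 1 and 22 in replicate 2, or 0.213 and 0.223 per kb. HoxB (chr11:96194316-96368254) had 37 and 37, or 0.213 per kb in both. HoxC (chr15:102921131-103036856) had 24 and 26, or 0.207 and 0.225 per kb. HoxD (chr2:74668225-74765142) had 21 and 20, or 0.217 and 0.206 per kb. The means were 0.218 ± 0.0072 for HoxA, 0.213 ± 0 for HoxB, 0.216 ± 0.0122 for HoxC and 0.212 ± 0.0073 for HoxD (SD, n = 2), so the differences were no larger than the spread between libraries. With so few sites the counting error was wider still: the exact Poisson 95% interval for replicate 1 of HoxD, for example, ran from 0.134 to 0.331 per kb. HoxB keeps Hoxb13 far from its other genes. From Hoxb9 to Hoxb1 the density was 0.248 per kb in each library (24 sites, interval 0.159 to 0.368), and between Hoxb13 and Hoxb9, where no Hox gene lies, it was 0.174 per kb in each (13 sites, interval 0.0926 to 0.298). These intervals overlap widely.

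Sites were denser inside the clusters than beside them. All 4 clusters together had 0.212 and 0.216 sites per kb between their outermost genes, against 0.095 and 0.105 in the 50 kb on each side and 0.0309 and 0.0310 in the rest of the genome. Peaks covered 7.79% and 7.69% of the cluster sequence, against 1.30% and 1.27% of the rest. The flanks differed among themselves: those of HoxC held 0.140 and 0.160 sites per kb, those of HoxA 0.090 and 0.100, those of HoxB 0.090 and 0.090, and those of HoxD 0.060 and 0.070. Short genes crowd these intervals, so short gene models were also compared. The 32 Hox models under 10 kb had 0.343 shared regions per kb, the 64 other homeobox models of that length 0.379, and the 7893 other protein-coding models 0.172. At least 1 region lay inside 29 of the Hox models (90.6%), 61 of the other homeobox models (95.3%) and 49.1% of all protein-coding models under 10 kb. The density of the Hox models was thus close to that of other homeobox genes. None of these differences was tested.

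**Figure D1:**
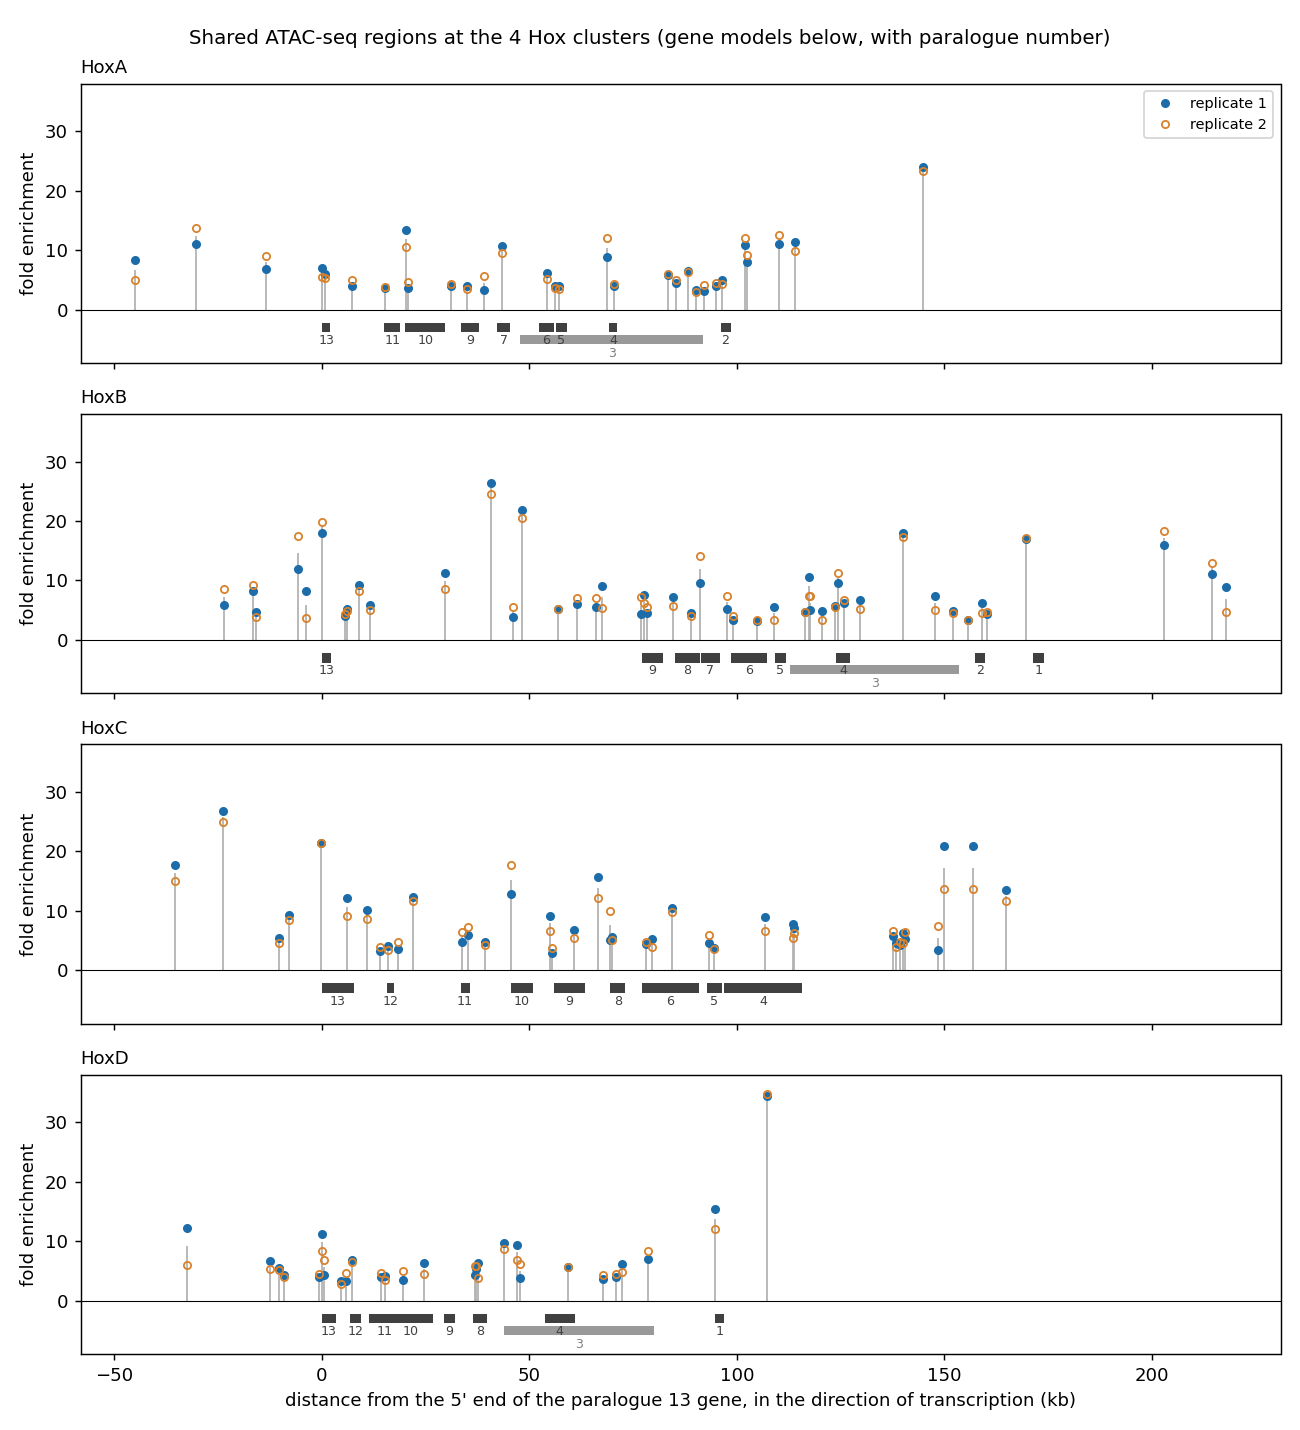
Shared ATAC-seq regions along the 4 clusters. The x axis is the distance in kb from the 5′ end of the paralogue 13 gene in the direction of transcription, the y axis is the fold enrichment in replicate 1 (filled) and replicate 2 (open), and bars below are the listed gene models with their paralogue numbers. Most sites between the genes lie below 10-fold, and the highest region of each cluster, from 23.9 and 23.2 at HoxA to 34.4 and 34.9 at HoxD, lies away from any listed gene end.

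The sites inside the clusters were weak ones for these libraries. Their median fold enrichment over local background, as the authors' peak caller gave it, was 5.40 in replicate 1 and 5.25 in replicate 2, against 8.64 and 8.41 in the flanks and 10.9 and 10.2 for shared peaks in the rest of the genome. A summit just outside the outermost gene ends counted as flank. The strongest gene-end regions of Hoxa13, Hoxb13 and Hoxc13, and of Hoxd13 in replicate 2, were thus flank sites. Fold is a ratio of tags to local background, and both differed. The median summit held 36 and 36 tags in the clusters, against 52 and 50 in the rest, and the median local background was 6.0 and 6.48 tags, against 3.64 and 3.60. Of the cluster sites, 24.3% and 15.2% exceeded the median fold of their library, against 61.4% and 58.0% of shared peaks elsewhere. Their median width was 324 and 304 bp, against 356 and 348 bp. The higher background was seen only away from gene ends. Cluster sites outside every gene-end window had 6.01 and 6.48 background tags, against 2.94 and 2.80 for such sites elsewhere. At gene ends the order was reversed, with 6.0 and 6.48 for cluster sites, against 7.38 and 7.82 for gene-end sites elsewhere. The part of the background in the low folds was not tested.

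Among the clusters, folds differed little. Over the genes and 50 kb on each side, the median fold was 5.62 ± 0.33 at HoxA, 5.83 ± 0.41 at HoxB, 6.26 ± 0.15 at HoxC and 5.38 ± 0.21 at HoxD (SD, n = 2). HoxC exceeded HoxD in both libraries, with 6.16 and 6.37 at HoxC and 5.53 and 5.24 at HoxD. With all peaks of 1 library in place of the shared ones, HoxB and not HoxC was highest: replicate 2 alone gave 5.51 at HoxB and 5.47 at HoxC, and replicate 1 alone gave 5.93 at HoxB and 5.69 at HoxC. Between the outermost genes alone, HoxA was lowest in both libraries, with 4.004 and 4.86, followed by HoxD with 5.40 and 4.90. Median widths were 313 ± 40.0 bp at HoxA, 326 ± 4.6 bp at HoxB, 353 ± 47.7 bp at HoxC and 331 ± 0.7 bp at HoxD, and this order was within the spread of the libraries.

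A site at a gene end was common among Hox genes, and it was seldom a strong one. A region shared by both libraries reached within 1000 bp of an end of 32 of the 38 Hox genes (84.2%, 95% Wilson interval 69.6 to 92.6). Of all protein-coding genes, 65.8% had one, and of 109 other homeobox genes, 99 had one (90.8%). The count was 9 of 10 in HoxA, 8 of 10 in HoxB, 8 of 9 in HoxC and 7 of 9 in HoxD. Above the median fold in both libraries, which was 8.78 and 8.73, there were 10 Hox genes (26.3%), against 51.9% of all protein-coding genes and 29.4% of the other homeobox genes. The intervals cover counting error only and treat neighbouring genes as independent, although the 32 genes shared 30 regions. The strongest region was nearer the 5′ end at 25 of the genes and nearer the 3′ end at 7.

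The strength differed in tags and width as well as in fold. The strongest gene-end region of the 32 Hox genes had a median fold of 6.52 and 6.56, the other homeobox genes had 7.53 and 7.34, and the other protein-coding genes had 15.2 and 16.0. Summits held 44.5 and 53.5 tags at Hox genes, 62 and 59 at other homeobox genes and 126 and 137 at other protein-coding genes. The local background was not higher at Hox gene ends, with 6.35 and 7.10 tags, against 8.40 and 8.80 at other homeobox genes and 7.66 and 8.08 at the others. Median widths were 340 and 349.5 bp at Hox genes, 450 and 472 bp at other homeobox genes and 627 and 609 bp at the others. Hox gene-end sites were therefore lower in tags and narrower than those of most genes in both libraries, and other homeobox genes lay on the same side. No test of these differences was made.

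**Figure D2:**
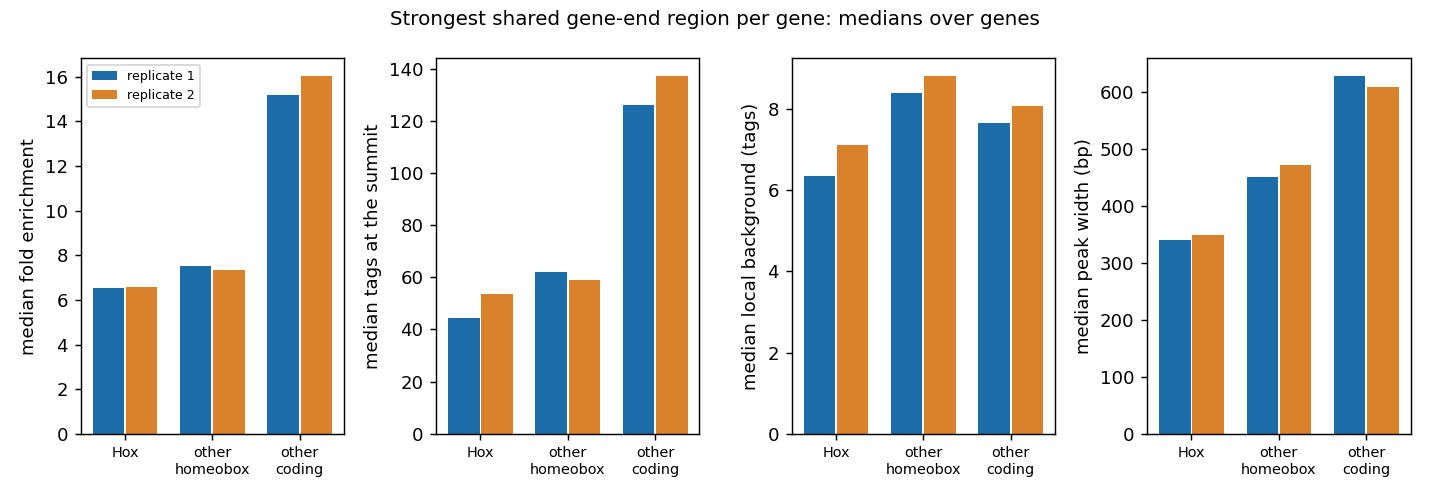
Medians of the strongest shared gene-end region per gene, for 32 Hox genes, 99 other homeobox genes and 14360 other protein-coding genes, in replicate 1 (blue) and replicate 2 (orange). The panels give fold enrichment, tags at the summit, local background in tags and peak width in bp. Hox genes are lowest in fold, tags and width in both libraries, while the background bars differ less.

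In HoxA, 3 genes stood out. Hoxa10, which patterns the uterus and limb, had 13.3 in replicate 1, the highest fold at a HoxA gene end there, and 10.4 in replicate 2, on 76 and 60 tags. Hoxa7 had 10.8 and 9.49 on 108 and 85 tags, and Hoxa4 had 8.86 and 11.97 on 44 and 50 tags, the highest HoxA fold of replicate 2. Their sites lay nearer the 5′ ends, and each passed the median fold of both libraries. The rest of the cluster was low. Hoxa13 had 7.03 and 5.56 over its start, and Hoxa2, which specifies the second pharyngeal arch, had 4.89 and 4.26. Hoxa5, a gene of lung and axial development, and Hoxa6 shared 1 region with 3.91 and 3.69. Hoxa11 had 3.60 and 3.75 over its start, on 25 and 21 tags. Hoxa3, needed for thymus and parathyroid, had a region at its 3′ end alone, with 3.09 and 4.07 on 28 and 33 tags. Hoxa9 had no gene-end peak in either library, although a weak region of 4.04 and 3.54 lay inside its model, 1529.5 bp past the 5′ end. The folds of Hoxa10, Hoxa7 and Hoxa4 exceeded those of the other 6 genes. These 3 were named for their high folds, so this is no separate result.

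HoxB held the highest median, with 8.58 and 9.35 over 8 genes. The region that Hoxb7 and Hoxb8 share enters this median at both genes. Hoxb13, a gene of the tail end and prostate, led with 18.0 and 19.9 on 119 and 146 tags at its 5′ end. Hoxb7 and Hoxb8 shared 1 region between them, at chr11:96285172-96285706, with 9.63 and 14.1 on 113 and 238 tags. Hoxb4, known for its effect on blood stem cells, had 9.62 and 11.3. These 4 genes were above the median fold of both libraries, Hoxb8 only through the region shared with Hoxb7, which lies at the Hoxb8 3′ end. The region nearest the 5′ end of the Hoxb8 model had 7.23 and 5.64, below both medians. Hoxb9 followed with 7.55 and 6.16, Hoxb6 with 5.25 and 7.35, and Hoxb2 with 6.17 and 4.52 nearer its 3′ end. Hoxb5 had 5.61 in replicate 1 and 3.30 in replicate 2, the lowest HoxB fold of replicate 2, while Hoxb6 was lowest in replicate 1. Hoxb3 had no gene-end peak, but its 40830 bp model, which also contains Hoxb4, held 11 shared regions. The widest region of the cluster by its mean width was among them, at chr11:96333556-96334403, with 18.0 and 17.2. Hoxb1, a gene of hindbrain segment identity, had a gene-end peak in replicate 2 alone, with 3.72 on 34 tags. A strong shared region of 17.01 and 17.2 lay 1656 bp before its start, outside the 1000 bp window.

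In HoxC, 2 genes stood out. Hoxc13, a gene of hair and nail formation, had the highest fold of all 38 genes, with 21.4 and 21.4 on 337 and 374 tags at its 5′ end. Hoxc10, expressed in the lumbar spinal cord, had 12.9 and 17.7 on 116 and 148 tags. Both exceeded the median fold of their libraries, and no other HoxC gene did so in both. Hoxc9, which shapes the thoracic motor columns, had 9.09 and 6.67. Hoxc8 had 5.06 in replicate 1 and 10.0 in replicate 2, on 38 and 72 tags, and this was the largest ratio between libraries at any Hox gene end, at 1.98. Hoxc11 had 5.96 and 7.35, Hoxc5 had 4.65 and 6.02, Hoxc6 had 4.46 and 4.68 and Hoxc12 had 3.58 and 4.81. Of these 4 genes, Hoxc11 lay above the HoxC medians of 5.51 and 7.01 in both libraries, and the other 3 lay below them in both. Hoxc4 had a gene-end peak in replicate 2 alone, with 4.14 on 24 tags. RefSeq places a start of Hoxc4 inside its model, and a shared region of 7.19 and 6.33 lay within 1000 bp of that start, at chr15:103034784-103035186.

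In HoxD, the folds were highest at Hoxd1 and Hoxd13, the outermost genes, and at Hoxd3, which lies between them. Hoxd1 had 15.4 and 12.1 on 100 and 74 tags over its start, in the widest region of the cluster, with 820 bp in replicate 1 and 987 bp in replicate 2. At the other end Hoxd13, a gene of digit formation, had 11.3 and 8.33 on 70 and 54 tags. Hoxd3 had 9.74 and 8.65 over its start. Only Hoxd1 passed the median fold of both libraries. Hoxd12 had 6.87 and 6.45, Hoxd8 had 5.40 and 5.87, Hoxd10 had 4.09 and 3.55, and Hoxd11 had 3.46 and 4.95 near its 3′ end. The last 3 rested on 27 to 40 tags. RefSeq also places a start of Hoxd10 and of Hoxd11 inside their models. Shared regions within 1000 bp of these inner starts had 6.26 and 4.44 at Hoxd10, and 3.97 and 4.67 at Hoxd11. Hoxd9 had no gene-end peak, and the nearest shared region lay 4970.5 bp before its start. Hoxd4 had one in replicate 2 alone, with 5.17 on 35 tags.

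**Figure D3:**
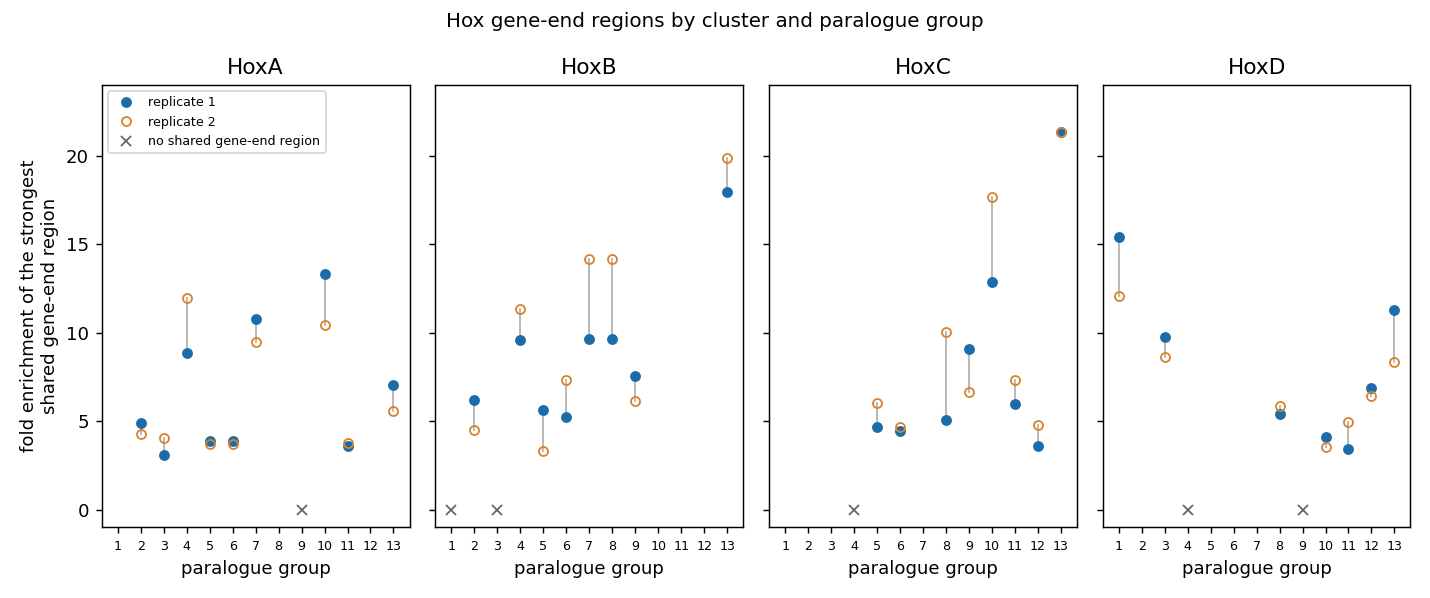
Fold enrichment of the strongest shared gene-end region of each Hox gene (y axis) against its paralogue group (x axis), 1 panel per cluster, with replicate 1 filled, replicate 2 open and a line joining both. Crosses at the base mark the 6 listed genes with no shared gene-end region and are not values. The paralogue 13 genes reach from 7.03 and 5.56 at Hoxa13 to 21.4 and 21.4 at Hoxc13.

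The paralogue number gave no ordered trend. Anterior genes, paralogues 1 to 3, had a median gene-end fold of 6.17 and 4.52 at 5 of 7 genes. Central genes, paralogues 4 to 8, had 5.40 and 7.35 at 13 of 15 genes, and posterior genes, paralogues 9 to 13, had 7.29 and 6.56 at 14 of 16 genes. The means were 5.35 ± 1.17, 6.37 ± 1.38 and 6.93 ± 0.52 (SD, n = 2), and the order of the classes differed between libraries: central genes were lowest in replicate 1 and highest in replicate 2, while posterior genes were above anterior ones in both. Across the 32 genes, Spearman's rho between paralogue number and fold was 0.15 in replicate 1 and 0.19 in replicate 2, given as a description since neighbours share regions. The folds of both libraries themselves had a rho of 0.83 across these genes.

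Single paralogue groups spread more than these classes. All 4 genes of group 13 had a gene-end region, with a median fold of 14.6 and 14.1, and Hoxc13, Hoxb13, Hoxd13 and Hoxa13 stood in that order of their means. Group 10 had 12.9 and 10.4 over 3 genes, but Hoxa10 and Hoxc10 lay far above Hoxd10. Hoxa7 and Hoxb7 gave group 7 a median of 10.2 and 11.8, and Hoxa4 and Hoxb4 gave group 4 a median of 9.24 and 11.7 while Hoxc4 and Hoxd4 had no shared region there. Group 11 had a median of 3.60 and 4.95, with Hoxc11 above Hoxa11 and Hoxd11 in both libraries, and groups 5 and 6 had 4.65 and 3.69, and 4.46 and 4.68. Group 9 had a region at Hoxb9 and Hoxc9 and none at Hoxa9 and Hoxd9. Genes of 1 group could differ widely, as within group 13, where the mean fold of both libraries ranged from 6.29 to 21.4.

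The strongest accessible site of each cluster lay away from its genes. HoxD had the highest of all, at chr2:74775353-74775696, with 34.4 and 34.9 on 177 and 167 tags, 10.2 kb beyond Hoxd1. HoxC had 26.7 and 25.0 at chr15:102896985-102897369, 23.8 kb from Hoxc13. HoxB had 26.4 and 24.5 at chr11:96234918-96235275 and 21.8 and 20.5 at chr11:96242294-96242817, both in the stretch between Hoxb13 and Hoxb9. HoxA had 23.9 and 23.2 at chr6:52115885-52116492, 45.9 kb from Hoxa2. No RefSeq gene end lay within 1000 bp of these 5 regions among protein-coding genes, and both libraries gave them close folds. HoxC also had a pair of flank regions that differed between libraries, at chr15:103070888-103071267 with 20.8 and 13.71, and at chr15:103077707-103078162 with 20.8 and 13.8.

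Some stretches of the clusters had no shared site. The longest was 17.7 kb in HoxB, at chr11:96206162-96223848 between Hoxb13 and Hoxb9. HoxD had 15.6 kb without one at chr2:74747018-74762648, up to the edge of the Hoxd1 region, and HoxA had 12.7 kb at chr6:52177669-52190367, inside the Hoxa3 model. HoxC had 11.6 kb at chr15:103015857-103027409, from Hoxc5 into the Hoxc4 model. The median distance between neighbouring sites was 3056.5 bp in HoxA, 3543 bp in HoxB, 3788 bp in HoxC and 3339 bp in HoxD. Of the regions between the outermost genes, 12 of 21 in HoxA, 11 of 37 in HoxB, 11 of 24 in HoxC and 11 of 21 in HoxD lay at a Hox gene end. The HoxB regions include the stretch between Hoxb13 and Hoxb9, with 13 sites in each library. In the rest of the genome, 18580 of 83591 shared replicate 1 peaks lay at a protein-coding gene end. Whether the crowding of genes in the clusters accounts for the difference was not tested.

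Of the 8 noncoding genes listed, 4 microRNA genes had a weak site at an end, Hotair had a stronger one and 3 genes had none. The 5 genes with a site (62.5%) are near the share of all protein-coding genes (65.8%), and the list is small. Mir10a, whose miR-10a-5p is printed above, had its nearest shared region 694.5 bp from the middle of its hairpin, with 5.77 and 5.56, and this region also overlaps the Hoxb4 promoter window. Mir10b had one at 1338 bp with 5.70 and 5.70. Mir196b had one at 455 bp with 4.004 and 4.37, and Mir615, which lies inside the Hoxc5 model, one at 612 bp with 4.65 and 6.02. Neither copy of the miR-196a gene had a gene-end region. The nearest one lay 3486 bp from Mir196a-1, with 9.09 and 5.40, and 2664 bp from Mir196a-2, with 9.09 and 6.67. Hotair, the long noncoding RNA gene between Hoxc12 and Hoxc11, had a stronger region than either neighbour, with 12.4 and 11.6. That region lay outside the Hotair model, on the Hoxc12 side, and whether this end is the Hotair start was not examined. Hottip, beside Hoxa13, had none.

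Promoter windows, taken from known start sites, did not show the higher share seen at gene ends. They cover mostly HoxA and HoxD: HoxB has windows at Hoxb1, Hoxb4 and Hoxb8 alone, and HoxC at Hoxc4 alone. Hoxb13, Hoxc10 and Hoxc13, which had strong gene-end sites, have no window. Whether the choice of genes accounts for the lower share was not tested. Of the 22 Hox genes with a RefSeq window, 15 had a shared region within 1000 bp of a start (68.2%, 95% Wilson interval 47.3 to 83.6), against 65.9% of all protein-coding genes with a window. A shared region lay over the window itself at 10 genes (45.5%, interval 26.9 to 65.3), against 61% of those genes. Counted by window, 10 of 24 Hox windows had one (41.7%), against 58.3% of 21263 windows. The Hox counts are near the background or below it, and the intervals include both background shares.

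CpG content was similar to that of other promoters, and the share of CpG-rich windows with a region was lower. Hox windows held a median of 14.5 CpG dinucleotides, from 4 to 45, against 13 over all protein-coding windows. Of the 11 Hox windows with at least 20 CpG, a limit chosen after the values were seen, 6 had a shared region (54.5%), against 92.4% of 7641 such windows. Their median fold was 8.39 and 6.94, against 14.8 and 15.7. Below 20 CpG, 4 of 13 Hox windows had one (30.8%), against 39.1% of 13622. The Hoxa13 window printed above held 45 CpG and had 7.03 and 5.56, the Hoxd13 window held 37 and had 11.3 and 8.33, and the Hoxd1 and Hoxa5 windows held 29 each, with 15.4 and 12.1 at Hoxd1 and 3.91 and 3.69 at Hoxa5. The CpG-rich windows without a region were those of Hoxa6 (26), Hoxd10 (22), Hoxa10 (21 at its inner start), Hoxa3 (20) and Hoxd9 (20). All Hox windows with at least 20 CpG belong to HoxA or HoxD. The Hoxa10 and Hoxd11 genes have 2 windows each, windows of 1 cluster are neighbours, and no test of the difference was made.

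**Figure D4:**
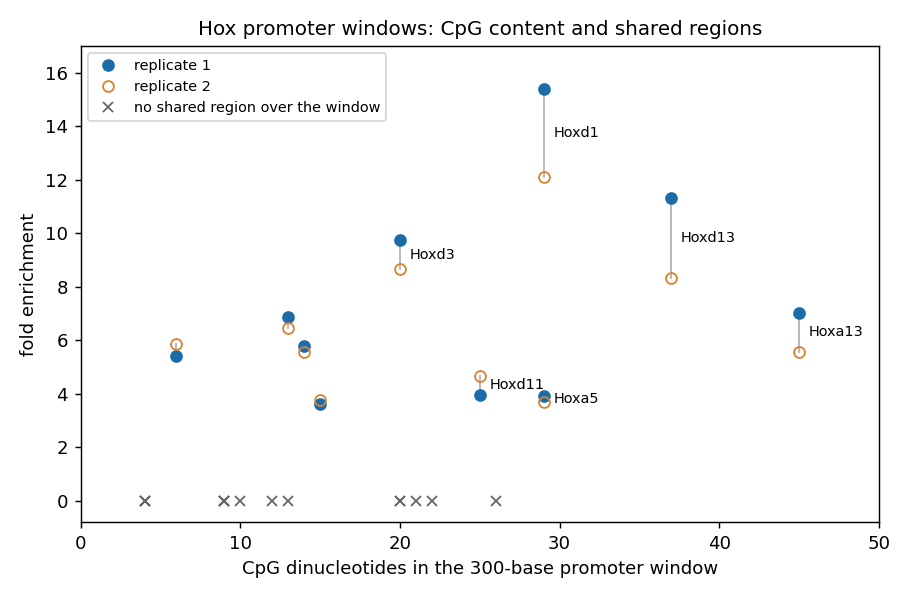
CpG dinucleotides in each of the 24 Hox promoter windows of 300 bases (x axis) and the fold enrichment of the shared region over the window (y axis), with replicate 1 filled and replicate 2 open. Crosses at the base mark the 14 windows with no shared region and are not values. Windows with no region reach up to 26 CpG, and those with one range from 6 to 45 CpG.

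The motifs searched were seldom present. The Cdx motif was in 2 of 24 Hox windows (8.33%), 3 times each in Hoxd4 and Hoxb8, against 9.58% of all windows. The Pbx and Hox motif TGATNNAT was in 4 (16.7%, against 7.45%), in Hoxa2, Hoxb1, Hoxb8 and 1 window of Hoxd11. The E-box CACGTG was in 5 (20.8%, against 7.84%), in Hoxd1, Hoxd4, Hoxd10, Hoxd11 and Hoxd13, which are all HoxD genes, and HoxD gave 10 of the 24 windows. TATAAA was in 4 (16.7%, against 12.6%). The retinoic acid element of direct repeats and the CTCF core motif were in 0 Hox windows, against 0.00470% and 2.34% of all. These are letter matches in 300 bases and not binding sites.

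Genes known to act on the clusters were set beside the Hox genes. Cdx2, a caudal factor, had a shared gene-end region with a fold of 7.18 and 6.32, and all 3 Cdx genes had a region. Of 22 Polycomb genes, 21 had one, with a median fold of 13.4 and 13.2. Among them, Ezh2, the H3K27 methyltransferase, had 17.4 and 20.1, Cbx2 had 20.1 and 20.3, Bmi1 had 5.58 and 5.54, and Cbx7 had none. All 8 Trithorax genes had one, with 14.6 and 14.2, and Kmt2a, a methyltransferase known to maintain Hox expression, had 11.2 and 12.2. The 65.8% of all genes is the background for each of these counts, and the lists are small. For the folds, the other protein-coding genes with a region had medians of 15.2 and 16.0, above those of the Polycomb and Trithorax lists.

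At their gene ends, the genes next to the clusters divided into homeobox genes with a weak site or none and others with strong ones. Evx1, the homeobox gene beside HoxA, had 3.70 and 3.505, and a region of 7.74 and 7.51 lay inside its model. Evx2, beside HoxD, had no gene-end region, although 3 shared regions between 4.07-fold and 6.66-fold lay inside its model. The others were higher. Lnpk, beyond Evx2, had 24.6 and 28.0, and Mtx2, on the other side of HoxD, had 18.7 and 19.4. Hibadh near HoxA had 26.2 and 30.6, Skap2 had 18.4 and 19.5, Calcoco1 near HoxC had 21.6 and 23.3 and Skap1 near HoxB had 10.97 and 12.8. The regions of Hibadh (chr6:52640127-52640731) and Skap1 (chr11:96760064-96760410) lay at the gene end farther from the cluster. Of the 8 flanking genes, 7 had a region, with a median fold of 18.7 and 19.5. Among all protein-coding genes 65.8% had one, and the list is small.

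The libraries differed slightly more at Hox gene ends than at other gene ends, and about equally over all sites of the clusters. The larger of both folds was a median of 1.27 times the smaller at the 32 Hox gene ends, against 1.11 times at 14360 other gene ends, where sites were stronger. Over the 103 shared regions between the outermost genes the median absolute log2 ratio of the folds was 0.2503, against 0.2397 over all shared regions, and among the clusters it ran from 0.190 in HoxA to 0.348 in HoxD. Summed over the shared regions between the outermost genes, replicate 2 held 1.25 times the tags of replicate 1 in HoxB. The ratio was 0.953 in HoxA, 0.961 in HoxC and 0.926 in HoxD, and 1.05 over all shared regions. In HoxB, 26 of 37 regions were higher in replicate 2 (70.3%), against 51.1% of all shared regions. The counts were 7 of 21 in HoxA, 11 of 24 in HoxC and 11 of 21 in HoxD. With 1 value per cluster and 2 libraries, this difference between HoxB and the other clusters was not tested.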

How the data were processed

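ATAC-seq libraries of Stag3 KO GSCs, replicates 1 and 2, formed 1 group, and groups and numbers came from the labels. Per the submitters' processing notes, the tools include MACS2 2.1.1, Bowtie2 2.3.4.1, deepTools 3.5.0, Picard 2.18.23, Trim Galore and bedtools 2.29.2, and the builds are mm10 and GRCm38.p3. For settings, duplicate removal and any shift of reads to the Tn5 cut site, the sources used here give nothing, although they affect which sites are called and how wide they are.

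The deposited files were 1 peak list per library, so peaks had been called per sample. Each peak had a fold enrichment, which is the authors' ratio over local background, used here to describe and rank peaks within a list. It also had the deposited −log10 p-value and −log10 q-value. The deposited score was not used. Read depth was unknown, but tags at each summit were recovered from the fold, which is the ratio of tags to background with 1 added to each, and the Poisson p-value. This gave a whole number for 100% of peaks within a relative tolerance of 1e-05 plus 0.0001, and the recovery and the overlap step were tested on simulated data.

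Peaks overlapping by at least 1 bp were shared. Each shared replicate 1 peak, merged with its largest overlap in replicate 2, made a region, and regions with a common replicate 2 peak were each counted. A gene-end region reached within 1000 bp of either end of a RefSeq model on GRCm38.p6, which keeps the chromosome coordinates of the peaks' build, and only gene starts and ends were used. Cluster sites had their summit between the outermost listed genes, and the flank was 50 kb on each side. The rest of the genome ran from the first to the last gene or peak of each chromosome. Strand came from the promoter table. A start for genes without a window there was taken as the 5′ end of the model. Values are medians, counts and means ± SD over both libraries, with Wilson or exact Poisson 95% intervals that cover counting error only. There was 1 group, so no test was run. Python 3.11.15, pandas 2.3.3 and scipy 1.17.1 were used.

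Members, lists and named genes (each listed Hox gene, the cluster microRNA and noncoding genes, flanking genes, Cdx, Polycomb and Trithorax genes, and per cluster the strongest and widest regions) were chosen with earlier results of these data known. The other homeobox genes, chosen by symbol, the short-model comparison, the CpG limit and the HoxB part from Hoxb9 to Hoxb1 were added after these values were seen. Alternatives changed the overlap, q-value, window, margin and libraries. A Hox gene, a noncoding gene beside it and 1 other list are not reported here.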

Additional observations from a re-analysis of the deposited data

How the results depend on the processing

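Of 79 alternative values, 40 stayed within 1 SD of the reported value, or for counts within 1.5 times of it, and 39 moved further. None moved by over 1.5 times, but orders by median fold turned. HoxC was highest with shared peaks and HoxB with a single library. HoxD was below HoxA in the reported values and above it with an overlap of 50%, without the flanks and without replicate 2. Anterior genes were below central ones in the reported values and above them without replicate 2, with 6.17 and 5.61. The 32 Hox genes with a gene-end region were 31 with an overlap of 50% of both peaks, 32 with a −log10 q of at least 5, 32 to 35 with 1 library left out, and 37 with a window of 2500 bp. Medians of the anterior, central and posterior genes stayed within 1 SD under each alternative run.

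Sites per kb, with an overlap of 50%, were 0.213 in HoxA, 0.190 in HoxB, 0.173 in HoxC and 0.181 in HoxD. These values lay further apart than the reported ones, and further than the spread between libraries, with SDs of 0 to 0.0073. Counting error is not in these SDs. With −log10 q of at least 5 they were 0.198 in HoxA, 0.201 in HoxB and 0.186 in HoxD. All peaks of a single library gave 0.254 to 0.305 in HoxA, 0.230 to 0.236 in HoxB, 0.259 to 0.302 in HoxC and 0.258 to 0.289 in HoxD. HoxB was thus lowest with either library. From Hoxb9 to Hoxb1 alone, HoxB had 0.248 per kb, a median fold of 5.42 and a median width of 313 bp.

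Median folds, with an overlap of 50%, were 5.27 in HoxA, 6.05 in HoxC and 5.82 in HoxD. With −log10 q of at least 5 they were 6.47 in HoxC and 5.62 in HoxD. A single library gave 4.15 to 5.22 in HoxA, 5.51 to 5.93 in HoxB, 5.47 to 5.69 in HoxC and 4.37 to 5.17 in HoxD. Without the flanks they were 4.43 in HoxA, 5.79 in HoxC and 5.15 in HoxD. Median widths were 319 bp in HoxB and 332 bp in HoxD with −log10 q of at least 5, and 305.5 bp and 322 bp without the flanks. A single library gave widths of 265 to 303 bp in HoxA, 301 to 301 bp in HoxB and 286 to 330 bp in HoxD. Lists of a single library hold unshared peaks, which adds sites. The cause of the other moves was not tested.

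No paired analysis was possible because the libraries form 1 group with no contrast. With 20 to 37 sites per cluster and 2 libraries, differences in density of the size seen among clusters were not detectable.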
